A study of Mus musculus with 36 samples.

Results

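The 9 genes examined here encode proteins that bring fatty acids into an adipocyte and bind them there, and they were followed through the differentiation of mouse brown pre-adipocytes. They were taken as a named list by gene symbol, with no threshold on a measured value, and each symbol was found once among the 55536 genes of the GENCODE M21 annotation. The list holds *Lpl* and *Lmf1*, *Cd36*, *Slc27a1* and *Slc27a4*, *Fabp3*, *Fabp4* and *Fabp5*, and *Acsl1*. RNA was sequenced in 36 libraries from 2 *Rxra*-/- clones, labelled 48 and 66, which Cas9 had made from a clonal brown pre-adipocyte line by frameshift in *Rxra*. Each clone carried a retroviral *Rxra* gene, either wild type (*Rxra*WT) or with the insulin-responsive serine changed to alanine (*Rxra*SA). Every group thus lacked the endogenous receptor, and cells with an empty vector or an intact gene are not analysed here. At day 0 the cells were confluent in medium with insulin and triiodothyronine. Dexamethasone, isobutylmethylxanthine and indomethacin were added from day 0 to day 2, and insulin and triiodothyronine alone were given up to day 6. There were 3 libraries per clone, genotype and day, hence 12 per day. The deposited design calls the replicates technical, whereas the study's methods describe its culture experiments as independent replicates. The p-values are therefore taken to measure only the spread between these libraries. Clone 48 was sequenced in pool 1 and clone 66 in pool 2, so clone and pool cannot be told apart.

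Fatty acids reach adipocytes mainly as triglyceride in lipoproteins. Lipoprotein lipase, encoded by *Lpl*, is folded in the endoplasmic reticulum with the help of lipase maturation factor 1 (*Lmf1*), is secreted, and releases fatty acids at the vessel wall. The released acids enter the cell with the help of the scavenger receptor CD36 and of fatty acid transport proteins, of which *Slc27a1* encodes FATP1 and *Slc27a4* encodes FATP4. Inside the cell, small binding proteins carry them: *Fabp3* encodes the heart and muscle type, which brown fat also uses, *Fabp4* the adipocyte type (aP2) and *Fabp5* the epidermal type. *Acsl1* encodes a long-chain acyl-CoA synthetase, which joins the acid to coenzyme A so that it stays in the cell and can be stored or burned. RXRα is the obligate partner of PPARγ, the nuclear receptor that drives adipocyte differentiation, and *Lpl*, *Cd36*, *Fabp4* and *Acsl1* are textbook targets of this pair.

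The libraries held between 11351078 and 24349263 counted read pairs (median 18338726). The label of differentiating adipocytes was checked against marker genes. The summed level of 5 adipocyte markers lay between 0.604 and 9.33 counts per 1000000 counts of the normalised library (CPM) at day 0, between 744 and 1998 CPM at day 2 and between 2516 and 4524 CPM at day 6. The summed level of 5 brown adipocyte markers lay between 10.5 and 17.7 CPM at day 0, between 19.2 and 43.3 CPM at day 2 and between 11.4 and 32.5 CPM at day 6. Most of it was *Ppargc1a* (10.2 to 31.3 CPM over all libraries), with *Elovl3* at 1.19 to 14.3 CPM at day 2, whereas *Ucp1*, the uncoupling protein of brown fat, had at most 5 counts in any library. That of 6 pre-adipocyte markers lay between 255 and 465 CPM at day 0, between 33.7 and 104 CPM at day 2 and between 42.1 and 168 CPM at day 6. At day 0 most of it was *Pdgfrb*, *Pdgfra* and *Ly6a* (medians of 170, 88.2 and 48.4 CPM), and *Cd34* had a median of 2.24 CPM. *Dlk1* had at most 1 count and *Thy1* at most 6 counts in any library. The summed level of 5 macrophage markers was at most 12.7 CPM, that of 5 endothelial markers at most 1.06 CPM and that of 5 skeletal muscle markers at most 7.5 CPM, with no counts of *Myh1* and *Myod1*. *Rxra* itself had a mean of 161 ± 39.8 CPM at day 0, 542 ± 91.7 CPM at day 2 and 246 ± 53.7 CPM at day 6 (SD, n = 12). It did not differ between *Rxra*WT and *Rxra*SA cells in the test (log2 fold changes of -0.07, -0.03 and 0.03). Counts of *Rxra* join what is left of the endogenous transcript with the retroviral one and do not report the amino acid change.

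The first comparison asked how the 9 genes changed over differentiation. Of the 9 genes, 8 had counts enough for the test across all libraries, and *Fabp3* did not. Between day 0 and day 2, 7 of the 8 rose and 1, *Slc27a1*, fell. The background was large, since 73.3% of all genes tested passed at an adjusted p-value under 0.05, with 35.8% higher and 37.5% lower at day 2. The median log2 fold change of the 8 genes was 3.70, beside -0.015 over all 16723 genes tested. Between day 0 and day 6, 7 genes were higher and 1 was lower, with a median of 3.64 (all genes -0.034, 68.3% of them called, 32.9% higher and 35.4% lower). Between day 2 and day 6, 4 were higher, 2 were lower and 2 did not pass, with a median of 0.51 (all genes 0.012, 62% called, 31.9% higher and 30.1% lower). With libraries scaled by their totals alone, the higher genes made up 33.6%, 34.9% and 57.7% of all those called in these comparisons, in place of 48.9%, 48.2% and 51.4%, and *Lmf1* at day 2 was the one member that changed direction. In RNA from whole cultures, fewer cells of a type and less RNA per cell cannot be told apart. The rise in adipocyte marker level went with these changes, and its part in them was not tested.

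**Figure D1:**
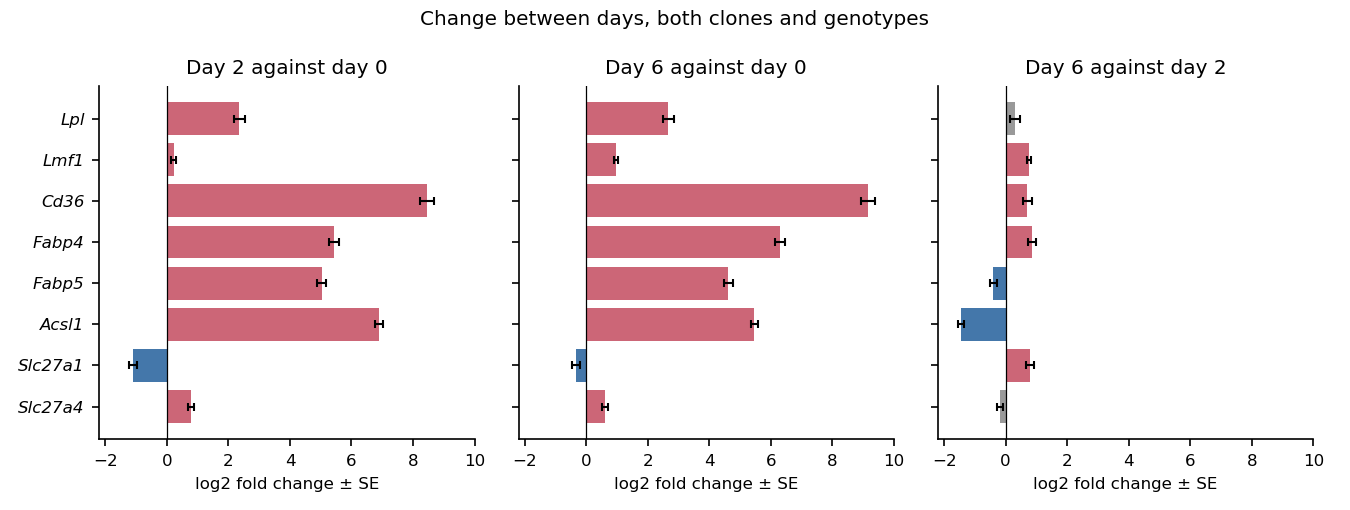
Log2 fold changes between days of the 8 genes that passed the filter on low counts, averaged over clones and genotypes, with standard errors; red bars are higher and blue bars lower at the later day with an adjusted p-value under 0.05, and grey bars did not pass. *Cd36*, *Acsl1*, *Fabp4* and *Fabp5* rose by 4.62 to 9.17 between days 0 and 6, whereas *Lmf1*, *Slc27a4* and *Slc27a1* stayed within 1 unit.

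*Lpl*, on chromosome 8 from 68880491 to 68907448 (GRCm38, plus strand), was already expressed before induction. At day 0 it lay between 361 and 1142 CPM (median 596), at day 2 between 2276 and 4063 CPM (median 3102) and at day 6 between 2154 and 5247 CPM (median 4542). No day 0 library reached the lowest library of either later day. The log2 fold change was 2.36 ± 0.177 (SE; 5.13-fold; adjusted p = 4.72e-14) by day 2 and 2.67 ± 0.178 (6.37-fold; adjusted p = 2.18e-15) by day 6. From day 2 to day 6 the difference of 0.31 ± 0.167 did not pass (adjusted p = 0.103). It passed in clone 48 (0.59 ± 0.187, adjusted p = 0.00916) and did not in clone 66 (0.08 ± 0.186, adjusted p = 0.756). The test of this contrast in edgeR gave -0.51 ± 0.263 (adjusted p = 0.312). With the replicate number of a clone as a block over all days, it gave -0.53 (adjusted p = 0.0436). Without replicate 1 of clone 66, in which *Lpl* was lowest at day 6, the pooled difference between days 2 and 6 was 0.42 (adjusted p = 0.0269). It also passed in the model of 12 groups (0.34, adjusted p = 0.0287) and with scaling by library totals (0.38, adjusted p = 0.0389).

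*Lmf1* (chromosome 17, 25579085 to 25662826, plus strand), the maturation factor of the lipase, moved less and later. Its level lay between 18 and 24.9 CPM at day 0, between 22.1 and 28.9 CPM at day 2 and between 32.7 and 51.5 CPM at day 6, with medians of 21.8, 24.8 and 44.2 CPM. The day 0 and day 2 libraries overlapped, and every day 6 library was above every earlier one. The log2 fold change was 0.97 ± 0.0691 by day 6 (adjusted p = 1.24e-14), of which 0.76 ± 0.0689 fell between days 2 and 6 (adjusted p = 1.28e-11). The change of 0.22 ± 0.069 by day 2 passed (adjusted p = 0.00537), but it was -0.04 (adjusted p = 0.574) when libraries were scaled by their totals alone and 0.15 (adjusted p = 0.0645) without replicate 3 of clone 48. Within clones it was 0.37 ± 0.0964 in clone 48 (adjusted p = 0.00156) and 0.16 ± 0.0958 in clone 66 (adjusted p = 0.152), and the test of that difference gave -0.21 ± 0.136 (adjusted p = 0.485). That scaling also shifted the genes as a whole, whose median went from -0.02 to -0.27 between days 0 and 2 and from -0.03 to -0.22 between days 0 and 6.

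*Cd36* (chromosome 5, 17781690 to 17888801, minus strand), the surface receptor, changed most of the 9 genes. It lay between 0.844 and 3.00 CPM at day 0, that is 22 to 59 counts per library. At day 2 it lay between 261 and 908 CPM (median 639) and at day 6 between 558 and 1509 CPM (median 993). Its log2 fold change was 8.46 ± 0.221 by day 2 (352-fold; adjusted p = 1.04e-26) and 9.17 ± 0.226 by day 6 (576-fold; adjusted p = 1.49e-27). From day 2 to day 6 it rose by a further 0.71 ± 0.155 (1.63-fold; adjusted p = 0.000163), although the libraries of these days overlapped. In each of the 12 sets of 3 libraries of one clone, genotype and day, replicate 3 had the lowest *Cd36* level.

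*Acsl1* (chromosome 8, 46471037 to 46536051, plus strand), the synthetase that traps fatty acids as acyl-CoA, peaked at day 2. Its level was between 29.7 and 50.7 CPM at day 0 (median 40.6). It lay between 4210 and 5548 CPM at day 2 (median 4722) and between 1361 and 2169 CPM at day 6 (median 1770). The days did not overlap. It rose on the log2 scale by 6.90 ± 0.121 by day 2 (119-fold; adjusted p = 1.31e-31) and then changed by -1.44 ± 0.0957 from day 2 to day 6 (2.72-fold lower; adjusted p = 4.12e-15), which left it 5.46 ± 0.113 above day 0 (44.0-fold; adjusted p = 1.17e-29). *Rxra* had the same order of days, with log2 fold changes of 1.77 ± 0.113 and -1.15 ± 0.111. Of the 10483 exon bases of *Acsl1*, 9.91% overlap an antisense gene model, *Gm45244*, and the counting settings did not use the strand.

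The promoter sequences of *Cd36* and *Acsl1* are shown because these genes rose most by day 2, beside a promoter of *Slc27a1*, the gene that fell at day 2. The RefSeq table (GRCm38.p6) held 9 windows for 6 of the 9 genes and none for *Lpl*, *Fabp4* and *Fabp5*. Each run below gives the 250 bases before an annotated start, 5′ to 3′ on the strand of the gene, and none overlaps a GENCODE M21 exon. Capitals mark matches, on either strand, to AGGTCA (the half-site of RXR and its partners), to a direct repeat of AGGTCA with 1 base between (the DR1 element of PPAR and RXR, with up to 2 mismatches), to TATAAA, to GGGCGG (GC box) or to CCAAT.
Cd36, chr5:17835897-17836146, minus strand: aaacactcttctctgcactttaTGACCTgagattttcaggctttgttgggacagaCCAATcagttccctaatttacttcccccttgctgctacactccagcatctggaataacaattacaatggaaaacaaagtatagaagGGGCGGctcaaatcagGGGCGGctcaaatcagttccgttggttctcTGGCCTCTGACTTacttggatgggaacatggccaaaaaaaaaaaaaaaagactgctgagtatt
Acsl1, upstream start, chr8:46470787-46471036, plus strand: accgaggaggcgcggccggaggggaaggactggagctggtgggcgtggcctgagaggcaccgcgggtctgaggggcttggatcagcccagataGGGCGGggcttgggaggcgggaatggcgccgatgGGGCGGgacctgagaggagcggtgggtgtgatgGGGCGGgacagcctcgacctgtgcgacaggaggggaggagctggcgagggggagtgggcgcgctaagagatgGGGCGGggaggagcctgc
Acsl1, downstream start, chr8:46490716-46490965, plus strand: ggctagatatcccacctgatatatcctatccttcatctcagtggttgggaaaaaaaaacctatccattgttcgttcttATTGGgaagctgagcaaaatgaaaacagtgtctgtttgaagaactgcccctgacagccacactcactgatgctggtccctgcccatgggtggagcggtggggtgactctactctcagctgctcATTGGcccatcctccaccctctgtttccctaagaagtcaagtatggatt
Slc27a1, most downstream start, chr8:71570344-71570593, plus strand: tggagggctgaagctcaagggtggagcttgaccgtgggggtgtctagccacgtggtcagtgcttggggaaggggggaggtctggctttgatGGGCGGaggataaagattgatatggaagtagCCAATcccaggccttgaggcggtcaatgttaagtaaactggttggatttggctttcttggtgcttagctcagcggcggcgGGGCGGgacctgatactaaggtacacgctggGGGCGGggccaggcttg

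The window of *Cd36* lay inside its gene model (17781690 to 17888801, minus strand), before an internal start. No window covered the upstream end of that model. This window was the only one of the 9 that held a DR1 match, with 2 mismatches, 63 to 51 bases before the start and on the opposite strand. It also held the only AGGTCA half-site, 228 to 223 bases before the start. Such matches occurred in 3.24% (DR1) and 14% (half-site) of the 32851 windows of the table. GGGCGG was found in 6 of the 9 windows and in 32.7% of all windows, and CCAAT in 4 of the 9 and in 33.8% of all windows. The upstream window of *Acsl1* had 4 GGGCGG matches and a GC content of 72%, whereas the downstream one had none and a GC content of 48.4%. The downstream window of *Acsl1* and the printed window of *Slc27a1* also lay inside their gene models. A window before the upstream end of the *Slc27a1* model (chr8:71568621-71568870) is not printed. It held CCAAT but no GGGCGG. No window of the 9 held TATAAA, which 12.4% of all windows did. These matches describe letters in the windows and no binding was measured.

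*Slc27a1* (chromosome 8, 71568882 to 71587302, plus strand), which encodes FATP1, fell and then partly returned. It lay between 55.9 and 107 CPM at day 0 (median 73.1), between 20.8 and 57.6 CPM at day 2 (median 34.4) and between 43.5 and 84.1 CPM at day 6 (median 59.9). Within each clone the day 0 and day 2 libraries did not overlap. The log2 fold change was -1.11 ± 0.131 by day 2 (2.15-fold lower; adjusted p = 2.78e-09) and 0.78 ± 0.129 from day 2 to day 6 (adjusted p = 3.13e-06). Its difference of -0.33 ± 0.128 between days 0 and 6 passed (adjusted p = 0.0238) but was -0.15 (adjusted p = 0.251) without replicate 1 of clone 66, -0.26 (adjusted p = 0.132) without replicate 2 of clone 66, -0.30 (adjusted p = 0.0798) without replicate 1 of clone 48 and -0.04 ± 0.152 within clone 48 (adjusted p = 0.84). It was also lost without the filter on low counts (-0.27, adjusted p = 0.0652) and without the clone term (-0.30, adjusted p = 0.0837).

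*Slc27a4* (chromosome 2, 29802634 to 29817522, plus strand), which encodes FATP4, moved the other way. It lay between 35.1 and 51.6 CPM at day 0, between 63.7 and 107 CPM at day 2 and between 49.8 and 101 CPM at day 6, with medians of 44.8, 71.9 and 66.1 CPM. Every day 2 library was above every day 0 library. Its log2 fold change was 0.79 ± 0.0892 by day 2 (1.73-fold; adjusted p = 1.01e-09) and 0.61 ± 0.0891 by day 6 (1.53-fold; adjusted p = 2.2e-07). The difference of -0.18 ± 0.0886 between days 2 and 6 did not pass (adjusted p = 0.0832), and did with the replicate number as a block (-0.18, adjusted p = 0.0139) or without replicate 3 of clone 48 (-0.19, adjusted p = 0.037).

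*Fabp4* and *Fabp5* lie on chromosome 3, *Fabp4* from 10204088 to 10208576 on the minus strand and *Fabp5* from 10012548 to 10016607 on the plus strand, in a cluster with *Pmp2*, *Fabp9* and *Fabp12*. *Fabp4* lay between 22.9 and 71.0 CPM at day 0 (median 41.7), between 1407 and 2484 CPM at day 2 (median 1929) and between 2667 and 4457 CPM at day 6 (median 3145). The 3 days did not overlap. Its log2 fold change was 5.43 ± 0.150 by day 2 (43.1-fold; adjusted p = 4.1e-26), with a further 0.86 ± 0.124 by day 6 (1.81-fold; adjusted p = 2.9e-07), which made 6.29 ± 0.156 in all (78.1-fold; adjusted p = 1.57e-27).

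*Fabp5* rose as early as *Fabp4* but not further. It lay between 18 and 47.2 CPM at day 0 (median 25.8), between 751 and 1199 CPM at day 2 (median 928) and between 468 and 1077 CPM at day 6 (median 696). Day 0 was separate, and the later days overlapped. On the log2 scale it rose by 5.03 ± 0.145 by day 2 (32.6-fold; adjusted p = 1.31e-25), then changed by -0.40 ± 0.122 from day 2 to day 6 (adjusted p = 0.00448). This decrease was found in clone 48 (-0.73 ± 0.144, adjusted p = 0.000101) and not in clone 66 (-0.07 ± 0.143, adjusted p = 0.719). The difference between the clones in this change was 0.66 ± 0.202 (adjusted p = 0.0511), and 0.63 with the replicate number as a block (adjusted p = 0.012). A pair of processed pseudogenes, *Gm6166* and *Gm14328*, match *Fabp5* transcripts at 98.3% and 97.3% identity over 409 and 408 bases. Their counts came to 0.541% of those of *Fabp5*. Read pairs matching more than 1 of these genes were not counted, so this share does not measure what *Fabp5* lost.

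*Fabp3* (chromosome 4, 130308595 to 130315463, plus strand) was close to absent on every day. It had 2 to 15 counts per library at day 0, 0 to 8 at day 2 and 2 to 14 at day 6, with medians of 0.232, 0.252 and 0.312 CPM. The days overlapped in both clones. In the model of the 12 clone, genotype and day groups, in which it could be tested, its log2 fold changes between days lay between -0.24 and 0.64 and none passed (smallest adjusted p = 0.199). These counts are uncertain, because 19.56% of the 823 exon bases overlap antisense models (*Zcchc17* and *Gm10570*) and 402 bases are 99.3% identical to the pseudogene *Fabp3-ps1*, so that read pairs matching both were not counted.

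**Figure D2:**
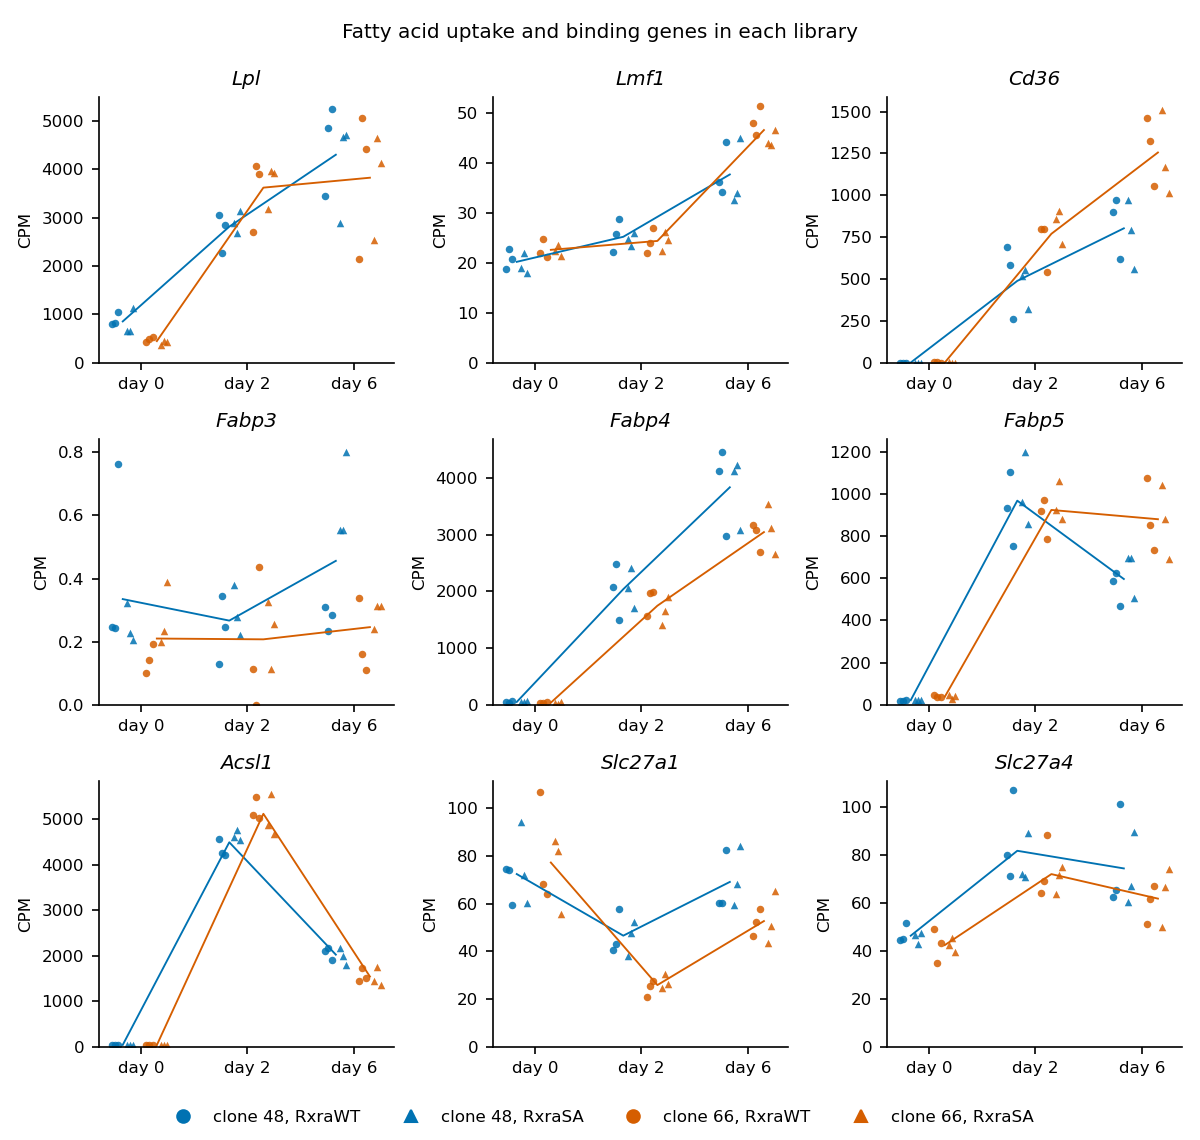
CPM of the 9 genes in each of the 36 libraries by day, with a separate linear axis from 0 for each gene; circles are *Rxra*WT and triangles *Rxra*SA libraries, blue is clone 48 and orange clone 66, and lines join the mean of the 6 libraries of a clone and day. *Acsl1* was highest at day 2, *Slc27a1* lowest at day 2, and *Fabp3* stayed under 1 CPM.

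Levels were compared between genes only per kilobase, with CPM divided by the exon bases that were counted. At day 0, *Lpl* led with 62.3 ± 24.3 CPM per kilobase (SD, n = 12), above every library of the next gene. *Slc27a1* (12.8 ± 2.62), *Slc27a4* (10.1 ± 0.984), *Fabp4* (9.84 ± 3.12) and *Fabp5* (8.50 ± 2.86) followed, and each overlapped with its neighbour in this order. At day 2, *Acsl1* (458 ± 40.5), *Fabp4* (422 ± 75.8), *Lpl* (307 ± 57.3), *Fabp5* (265 ± 35.8) and *Cd36* (175 ± 56.7) again overlapped with their neighbours, and all 5 were above *Slc27a4* (17.4 ± 2.84). At day 6, *Fabp4* led with 766 ± 141 CPM per kilobase, above every *Lpl* library (388 ± 99.6). *Cd36* (287 ± 83.7), *Fabp5* (207 ± 54.1) and *Acsl1* (170 ± 27.7) came next and overlapped in turn. The order depended on the length used, because the exon bases of *Fabp4* add to 4489 whereas its coding transcript has 896. With the longest coding transcript of each gene, *Fabp4* led at day 2 as well (2112 ± 380 CPM per kilobase, *Acsl1* 1232 ± 109), and *Cd36* came after *Acsl1* at day 6 (303 ± 88.4 and 457 ± 74.6).

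The design of the series asked whether the serine of RXRα matters for expression, so *Rxra*SA was compared with *Rxra*WT at each day. None of the 8 genes tested passed on any day in edgeR's quasi-likelihood test, in DESeq2 or in any other fit tried, and in the edgeR test none had an unadjusted p-value under 0.05. Over all genes tested, 0% were called at each day. Before adjustment, p was under 0.05 for 139 (day 0), 162 (day 2) and 125 (day 6) of the 16723 genes. These counts are below the share of 0.05 that independent libraries would give by chance with no difference. The test took the libraries as unpaired, so the low counts are no measure of how alike the genotypes are. The log2 fold changes of the 8 genes lay between -0.15 and 0.06 at day 0, between -0.11 and 0.11 at day 2 and between -0.09 and 0.07 at day 6.

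A missed threshold does not show equal expression. The intervals given here take the libraries as unpaired. With a block for each clone, replicate number and day, a fit added after the data were seen, the median SE of the 8 genes was 0.0713 on each day, beside 0.176, 0.173 and 0.173 without it. In that fit *Lpl* at day 0 had a log2 difference of -0.18 ± 0.068 with an unadjusted p of 0.0173 (edgeR; adjusted p = 0.807), and it was the only one of the 8 genes under 0.05 on any day. The pairing behind the block was uneven at day 0, where same-numbered libraries had correlations between 0.176 and 0.921. For *Lmf1* the 95% interval at day 6 reached from -0.27 to 0.12 on the log2 scale, and for *Acsl1* at day 2 from -0.25 to 0.28. For *Lpl* it reached from -0.63 to 0.33 at day 0, and for *Cd36* from -0.59 to 0.57 at day 0 and from -0.40 to 0.48 at day 2. Among the same-numbered libraries of a clone, *Fabp5* at day 2 was higher with *Rxra*SA in 6 of 6 pairs, by 0.01 to 0.19 on the log2 scale (mean CPM of 911 for *Rxra*WT and 981 for *Rxra*SA). This difference did not pass without the block (0.11 ± 0.171, adjusted p = 1) or with it (0.11 ± 0.0748, adjusted p = 1). *Lpl* was lower with *Rxra*SA in 5 of 6 pairs at day 0 (means of 685 CPM for *Rxra*WT and 620 for *Rxra*SA) and in 5 of 6 pairs at day 6 (4200 and 3935 CPM), and neither difference passed. *Fabp4* and *Slc27a4* at day 2 and *Lmf1* at day 6 were likewise lower in 5 of 6 pairs, and *Fabp3* at day 6 was higher in 5 of 6. These splits were picked from those of all genes of the list on all days, where some arise by chance. *Fabp3* at day 6 had mean CPM of 0.239 for *Rxra*WT and 0.463 for *Rxra*SA, which are a few counts per library.

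**Figure D3:**
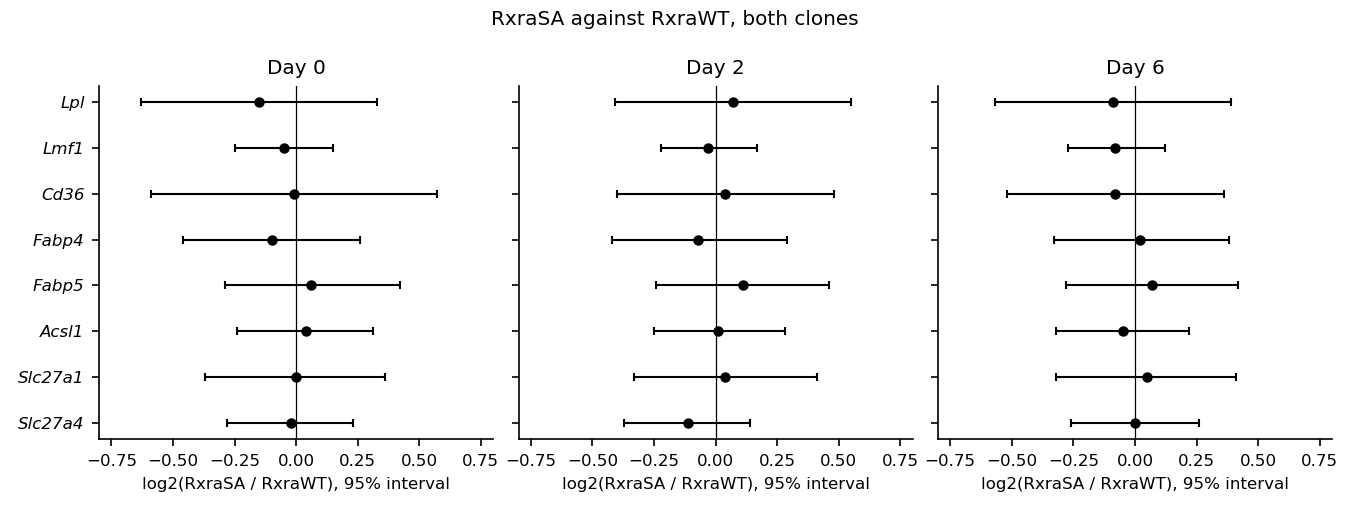
Log2 ratio of *Rxra*SA to *Rxra*WT for the 8 genes tested at each day, averaged over clones, with 95% intervals from the edgeR fit. All 24 intervals include 0, and the point estimates lie between -0.15 and 0.11.

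No difference between genotypes in the change over time was detected. No gene passed in the genotype by time tests (0% of all genes), and the largest difference among the 8 was that of *Lpl* between days 0 and 2 (0.21 ± 0.333, adjusted p = 1). Nor did the genotype difference vary with the clone by the test (0 of 9 genes passed at each day, 0% of all genes). The point estimates of that contrast for *Fabp3*, which rest on single counts, reached 1.64 at day 0.

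The clones differed. Of the 9 genes, 2 differed between clone 66 and clone 48 on day 0 (1 higher and 1 lower in clone 66; 11.7% and 11% of all genes, 22.7% together). On day 2 there were again 2 (1 higher, 1 lower; 13.7% and 14.9% of all genes, 28.6% together), and on day 6 there were 4 (3 higher, 1 lower; 13.5% and 11.5% of all genes, 25% together). At day 0 *Lpl* had a mean of 857 ± 199 CPM in clone 48 and 449 ± 57.9 CPM in clone 66 (SD, n = 6), without overlap (log2 difference of -0.94 ± 0.188, adjusted p = 0.000344). *Fabp5* was lower in clone 48 at that day, with 22.1 ± 2.68 against 38.5 ± 7.71 CPM and no overlap (0.80 ± 0.147, adjusted p = 0.000131). At day 2 both differences were gone from the test (*Lpl* 0.36 ± 0.186, adjusted p = 0.152; *Fabp5* -0.07 ± 0.143, adjusted p = 0.752), though without replicate 1 of clone 66 that of *Lpl* was 0.52 (adjusted p = 0.0202).

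At day 2 *Slc27a1* had 46.6 ± 7.37 CPM in clone 48 and 25.9 ± 3.27 CPM in clone 66, again without overlap (-0.85 ± 0.155, adjusted p = 8.49e-05). *Cd36* was higher in clone 66 at day 2 (770 ± 129 against 489 ± 165 CPM; 0.65 ± 0.225, adjusted p = 0.0296) and at day 6 (1255 ± 209 against 803 ± 179 CPM; 0.66 ± 0.224, adjusted p = 0.0285). Both calls of *Cd36* were lost in some of the fits that left out a replicate number. At day 2 the difference was 0.40 (adjusted p = 0.15) without replicate 3 of clone 48 and 0.57 (adjusted p = 0.151) without replicate 2 of clone 66. At day 6, 4 of the 6 such fits lost it (adjusted p = 0.0822 and 0.0867 without replicates 2 and 3 of clone 48, 0.102 and 0.107 without replicates 1 and 2 of clone 66), as did scaling by library totals (0.58, adjusted p = 0.0633).

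At day 6 *Fabp5* was once more higher in clone 66 (879 ± 158 against 596 ± 95.3 CPM; 0.58 ± 0.143, adjusted p = 0.00283). *Acsl1* was lower in clone 66 (1541 ± 157 against 2022 ± 150 CPM, no overlap; -0.37 ± 0.117, adjusted p = 0.0176) and *Lmf1* was higher (46.6 ± 2.88 against 37.7 ± 5.49 CPM; 0.32 ± 0.095, adjusted p = 0.0123). The call of *Acsl1* was lost without replicate 1 of clone 48 and without replicates 1 and 3 of clone 66 (adjusted p = 0.111, 0.0774 and 0.0869). That of *Lmf1* was lost without replicates 1 and 2 of clone 48 and without replicate 3 of clone 66 (adjusted p = 0.0921, 0.201 and 0.0929), and without the filter on low counts (adjusted p = 0.123). *Fabp4* had lower means in clone 66 on all 3 days (log2 differences of -0.43, -0.23 and -0.31) but did not pass. On day 0 it was -0.13 (adjusted p = 0.636) without replicate 3 of clone 48, and it passed without replicate 2 of clone 48 (-0.57, adjusted p = 0.0467) or replicate 3 of clone 66 (-0.64, adjusted p = 0.0291). It also passed on day 6 without replicate 3 of clone 48 (-0.47, adjusted p = 0.0282). *Slc27a1* on day 6 (-0.37 ± 0.152, adjusted p = 0.0721) passed without replicate 1 of clone 48 (-0.47, adjusted p = 0.0477) or replicate 3 of clone 66 (-0.51, adjusted p = 0.0247), and was -0.22 (adjusted p = 0.293) without replicate 3 of clone 48.

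Whether a gene changed by a different amount in the clones was tested directly. Between days 0 and 2, 3 of 9 genes passed, 1 with a larger value in clone 66 and 2 with a smaller one, against 6.22% of all genes (3.43% and 2.79%). *Lpl* rose by 3.07 ± 0.201 in clone 66 and 1.76 ± 0.192 in clone 48 on the log2 scale, a difference of 1.31 ± 0.264 (adjusted p = 0.00169). *Fabp5* rose by 4.63 ± 0.167 in clone 66 and 5.50 ± 0.174 in clone 48 (difference of -0.87 ± 0.205, adjusted p = 0.00699). *Slc27a1* changed by -1.53 ± 0.156 in clone 66 and -0.59 ± 0.153 in clone 48 (difference of -0.94 ± 0.216, adjusted p = 0.00606). The result for *Lpl* passed in each fit that left out a replicate number. That for *Fabp5* was -0.66 (adjusted p = 0.117) without replicate 2 of clone 48 and -0.69 (adjusted p = 0.0609) without replicate 1 of clone 66. That for *Slc27a1* was -0.94 (adjusted p = 0.0614) and -0.67 (adjusted p = 0.0808) without replicates 2 and 3 of clone 48, and -0.64 (adjusted p = 0.12) without replicate 1 of clone 66.

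Between days 2 and 6, 1 of 9 genes passed, with a smaller value in clone 66, against 5.81% of all genes (3.17% with a larger and 2.64% with a smaller value). *Acsl1* changed by -1.73 on the log2 scale in clone 66 and by -1.17 in clone 48, a difference of -0.56 ± 0.165 (adjusted p = 0.0391). It passed in 1 of the 6 fits without a replicate number, that without replicate 2 of clone 66, and missed in the others (adjusted p = 0.134, 0.0813 and 0.0517 without replicates 1, 2 and 3 of clone 48, 0.123 and 0.11 without replicates 1 and 3 of clone 66). It also missed without the filter on low counts (-0.59, adjusted p = 0.0567). With the replicate number as a block, 4 of the 9 genes passed, where 11.8% of all genes did, namely *Acsl1*, *Fabp5* (0.63, adjusted p = 0.012), *Lmf1* (0.38, adjusted p = 0.0353) and *Lpl* (-0.53, adjusted p = 0.0436). Between days 0 and 6 none of the 9 passed (edgeR; 3.62% of all genes, 2.17% with a larger and 1.46% with a smaller value), and 2 of the 9 had an unadjusted p-value under 0.05. *Lpl* (0.79 ± 0.264, adjusted p = 0.099) passed there with the block (0.74, adjusted p = 0.00646) and without replicate 1 of clone 66 (0.94, adjusted p = 0.0282).

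**Figure D4:**
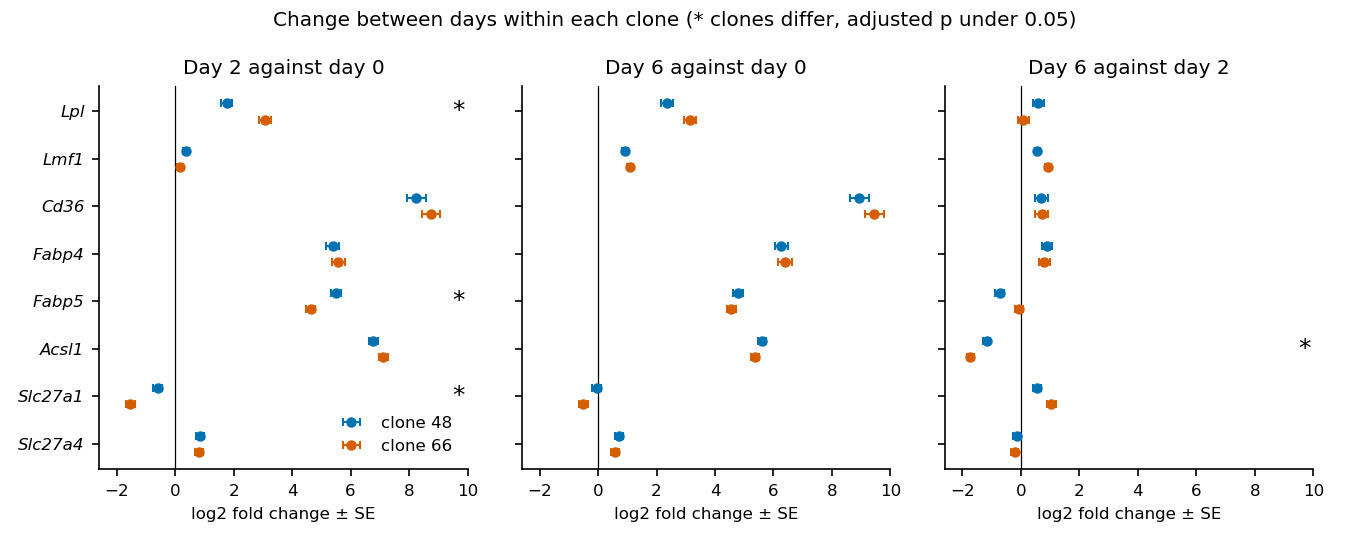
Log2 fold changes between days within clone 48 (blue) and clone 66 (orange) with standard errors, both genotypes together (6 libraries per clone and day); an asterisk marks genes whose change differed between the clones with an adjusted p-value under 0.05. *Lpl*, *Fabp5* and *Slc27a1* are marked between days 0 and 2 and *Acsl1* between days 2 and 6.

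Members of a family were set against each other as log2 ratios of CPM per kilobase of exon within a library, which do not depend on how libraries are scaled. In each clone 6 libraries of a day were compared with 6 of another by an exact two-sided permutation test, for which the smallest possible p-value is 0.00216, or 0.0026 after adjustment over the 24 comparisons. This test takes the 6 libraries as independent, although the *Rxra*WT and *Rxra*SA libraries of a number deviated together. With each such pair averaged, 3 values stand against 3 and the exact test cannot go below 0.1, which 20 of the 24 comparisons reached. The ratio of *Fabp4* to *Fabp5* rose between days 0 and 6 by 1.54 in clone 48 (from 0.81 ± 0.34 to 2.35 ± 0.12, SD) and by 1.85 in clone 66 (from -0.38 ± 0.40 to 1.47 ± 0.14), each at that smallest p-value. Between days 0 and 2 the ratio of clone 66 rose by 0.96, at the smallest p-value, and that of clone 48 did not pass (-0.08, adjusted p = 0.621 in the exact test). Whether the clones differed in this was not tested. As shares of the 3 binding proteins listed, *Fabp4* went from 62.2 ± 5.26% at day 0 to 83.5 ± 1.11% at day 6 in clone 48 and from 43.0 ± 6.54% to 73.5 ± 1.87% in clone 66. Counted per kilobase of coding transcript, the shares at day 6 were 87.6 ± 0.865% and 79.3 ± 1.58%.

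The ratio of *Slc27a1* to *Slc27a4* turned over at day 2. It changed by -1.44 in clone 48 (from 0.23 ± 0.30 to -1.21 ± 0.15) and by -2.31 in clone 66 (from 0.44 ± 0.25 to -1.88 ± 0.16), then rose by 0.71 and by 1.25 up to day 6, each at the smallest p-value. At day 6 it was still below day 0, with differences of -0.72 and -1.07. The share of *Slc27a1* in the sum of both was 53.9 ± 5.15%, 30.2 ± 2.17% and 41.5 ± 1.88% at days 0, 2 and 6 in clone 48 and 57.5 ± 4.26%, 21.4 ± 1.92% and 39.3 ± 1.47% in clone 66. Per kilobase of coding transcript, *Slc27a1* remained the larger part at day 6 (57.6 ± 1.92% and 55.4 ± 1.54%), so which of the pair leads at that day depends on the length used.

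The lipase rose ahead of its maturation factor. The log2 ratio of *Lpl* to *Lmf1* went up by 1.42 in clone 48 and 2.90 in clone 66 between days 0 and 2, each at the smallest p-value. Between days 2 and 6 it was level in clone 48 (0.02, adjusted p = 0.894 in the exact test) and changed by -0.91 in clone 66, without overlap and at the smallest p-value. The ratio of *Fabp4* to *Fabp3* rose by 5.57 and 5.90 by day 2, and its differences between days 2 and 6 (0.27 and 0.23) did not pass (adjusted p = 0.549 and 0.809 in the exact test). It rests on the few counts of *Fabp3*, to which 0.5 counts were added.

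**Figure D5:**
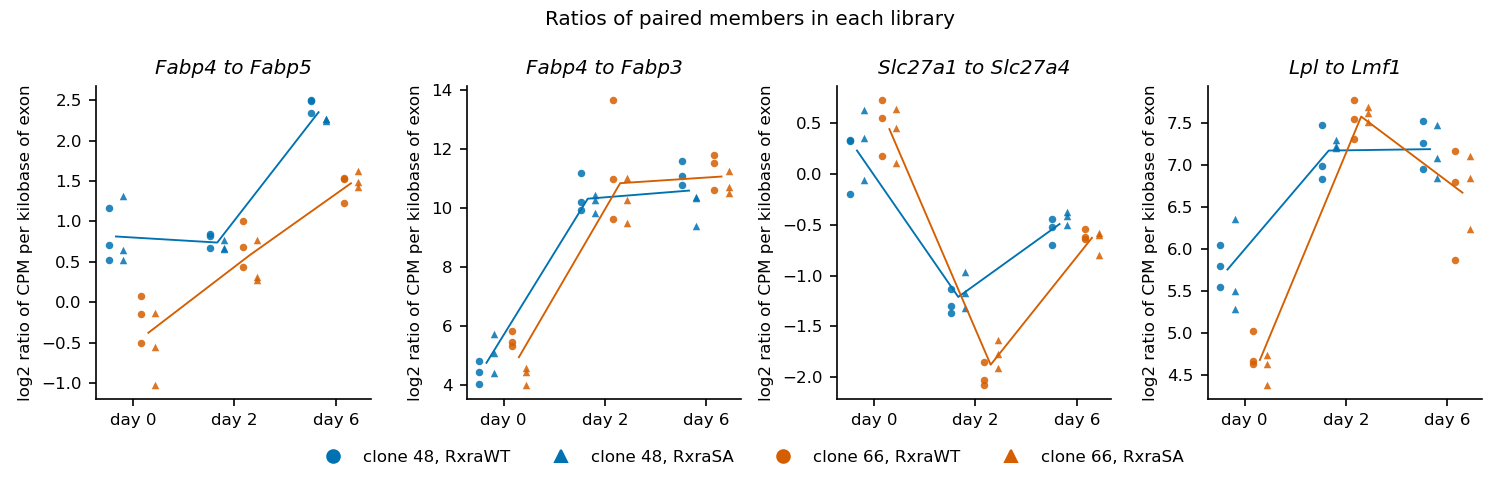
Log2 ratios of CPM per kilobase of exon for 4 pairs of genes in each library by day; circles are *Rxra*WT and triangles *Rxra*SA, blue is clone 48, orange clone 66, and lines join the mean of each clone. *Fabp4* to *Fabp5* climbs to 2.35 (clone 48) and 1.47 (clone 66) at day 6, and *Slc27a1* to *Slc27a4* dips to -1.21 and -1.88 at day 2.

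The replicate number went with the level of several genes. *Fabp5* was lowest in replicate 3 in 10 of the 12 sets of 3 libraries and *Slc27a4* highest there in 10 of 12, while *Lpl* was lowest in replicate 1 in 9 of 12. At day 6 *Lpl* was lowest in replicate 1 in 4 of 4 sets, at 2154 and 2551 CPM in *Rxra*WT and *Rxra*SA of clone 66, where the other 4 libraries lay between 4125 and 5065 CPM. *Furin*, a proprotein convertase that cleaves the lipase and its regulators, was lowest in replicate 1 in 11 of 12 sets and highest in replicate 3 in 10 of 12. It ranged from 5.28 to 69.6 CPM. For other genes of the list the order turned with the day. *Slc27a1* was highest in replicate 1 in 4 of 4 sets at day 0 and lowest there in 4 of 4 at day 2. *Fabp4* was highest in replicate 3 in 4 of 4 sets at day 0 and lowest there in 4 of 4 at day 6. *Acsl1* was lowest in replicate 2 in 4 of 4 sets at day 0 and highest there in 3 of 4 at day 2. Such turns enter the changes between days. What the libraries of a number shared was not tested.

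Another 36 genes of fatty acid uptake were taken as a fixed list, of which 21 had counts enough for the test. Between days 0 and 2, 10 were higher and 6 lower, with a median log2 fold change of 0.27. Between days 0 and 6, 12 were higher and 2 lower (median 0.39), and between days 2 and 6, 12 were higher and 4 lower (median 0.66). The shares of all genes called on these days are given above.

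Among 11 genes that control lipoprotein lipase, *Angptl4*, a secreted inhibitor, lay between 62.0 and 98.0 CPM at day 0, between 460 and 684 CPM at day 2 and between 97.3 and 142 CPM at day 6. It rose with a log2 fold change of 2.88 ± 0.0922 (adjusted p = 2.46e-24) and fell by 2.27 up to day 6 (adjusted p = 3.6e-21). *Angptl8*, a secreted protein that takes part in lipase inhibition, had at most 6 counts per library at days 0 and 2 and lay between 3.67 and 25.3 CPM at day 6 (log2 fold change from day 0 of 6.07 ± 0.295, adjusted p = 3.36e-19). *Apoc3*, an apolipoprotein that restrains the lipase, had no counts at day 0 and lay between 4.62 and 15.9 CPM at day 6. This was at least 61.8-fold higher, against 3 counts per library. *Sel1l*, an endoplasmic reticulum protein that works with *Lmf1* in lipase maturation, was higher at day 2 (0.76 ± 0.153, adjusted p = 4.36e-05) and at day 6 (0.67 ± 0.153, adjusted p = 0.000265). *Gpihbp1*, the endothelial protein that holds the lipase at the vessel wall, had at most 10 counts in any library, beside the endothelial markers given above.

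The other long-chain acyl-CoA synthetases tested moved opposite to *Acsl1* up to day 2 and again from day 2 to day 6. *Acsl3*, *Acsl4* and *Acsl5* were lower at day 2 than at day 0 (log2 fold changes of -1.07 ± 0.103, -0.27 ± 0.114 and -1.21 ± 0.0825, with adjusted p-values of 2.35e-11, 0.0322 and 3.23e-15) and higher at day 6 than at day 2 (1.31, 0.77 and 0.66). The fall of *Acsl4* was small, and its libraries overlapped (46.2 to 101 CPM at day 0 and 44.7 to 64.7 CPM at day 2). Of all genes tested, 37.5% were lower at day 2 than at day 0 and 31.9% were higher at day 6 than at day 2. Between days 0 and 6, 2 of the 3 synthetases were higher, as *Acsl1* was, and 1 was lower (32.9% and 35.4% of all genes). *Acsl4* was the most increased of them over day 0 (0.50 ± 0.114) and *Acsl5* was below day 0 (-0.56 ± 0.0814). *Acsl6* had at most 2 counts in any library.

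Of 8 other binding proteins, 2 could be tested. *Dbi*, the acyl-CoA binding protein, rose by 1.90 ± 0.138 up to day 6 (adjusted p = 2.59e-14; 519 to 962 CPM at that day). *Fabp12*, which lies beside *Fabp4* on chromosome 3 from 10244209 to 10301183, had 2 counts in the 12 day 0 libraries together. At day 6 it lay between 1.70 and 4.06 CPM, a ratio of 369 with a counting interval of 102 to 3050. *Fabp9*, between *Pmp2* and *Fabp4* in the cluster, had at most 21 counts and *Pmp2* at most 2.

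Of 4 other fatty acid transport proteins, *Slc27a3* alone could be tested and was slightly higher at day 6 (0.39 ± 0.137, adjusted p = 0.0127; 1.21 to 2.99 CPM). *Slc27a6* had no counts, and *Slc27a2* and *Slc27a5* had at most 5 and 3. Of 9 further genes of the cell surface and of CD36 handling, 7 could be tested. Of these, 5 rose and 1 fell by day 2, where 73.3% of all genes were called, and at day 6 2 were higher and 0 lower than at day 0, where 68.3% were. *Scarb1*, a scavenger receptor related to CD36, had the largest rise by day 6 (1.43 ± 0.111, adjusted p = 1.23e-13), followed by *Cav1*, the caveolar coat protein (1.12 ± 0.0963, adjusted p = 1.82e-12). *Got2*, which encodes the protein also known as plasma membrane fatty acid binding protein, had the lowest value at day 6 (-0.11 ± 0.0755, adjusted p = 0.216) after a rise at day 2 (0.66 ± 0.0757, adjusted p = 1.44e-09). *Zdhhc4* and *Zdhhc5*, palmitoyltransferases of CD36, were higher at day 2 (0.38 ± 0.0687 and 0.71 ± 0.109) and near day 0 at day 6 (0.07 each). *Vldlr* had at most 4 counts.

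Likeness of pattern was described by the Pearson correlation of log2 CPM over all 36 libraries, among 9147 protein-coding genes of sufficient level. The libraries share days and clones, so these values mostly reflect the differences between days. The closest to *Cd36* were *Echs1* (0.992), *Gpd1* (0.991) and *Dgat1* (0.989), and the closest to *Fabp4* were *Gpd1* (0.993), *Pparg* (0.992) and *Adig* (0.991). For *Fabp5* they were *Dgat1* (0.993), *Atpaf2* (0.99) and *Aifm2* (0.989), and for *Acsl1* they were *Apmap* (0.995), *Pank3* (0.992) and *Gpat3* (0.992). *Lpl* was closest to *Tmem170b* (0.973) and *Map3k5* (0.97). The remaining genes had weaker matches, with *Gpi1* (0.96) first for *Lmf1*, *Aplp2* (0.95) for *Slc27a4* and *Col3a1* (0.919) for *Slc27a1*. Among the genes of the list, *Cd36* and *Fabp4* were the most alike (0.984), and *Slc27a1* had negative values with each of the others except *Lmf1* (0.061), the lowest being -0.671 with *Acsl1*.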

How the data were processed

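RNA was sequenced as stranded, ribosome-depleted total RNA. Per the labels and the study's methods, the authors aligned reads with STAR 2.7.0d and counted read pairs per gene with featureCounts 1.6.2 on GENCODE M21 (GRCm38.p6), without a strand setting or multi-mapping pairs, and deposited 1 table of raw counts per library. Here the counts of all 36 libraries were joined, scaled by TMM and fitted with edgeR 4.0.16 (R 4.3.3) by the quasi-likelihood test in its earlier form. The model held genotype by day with a clone term (16723 genes after filterByExpr), or the 12 clone, genotype and day groups (17589 genes) for contrasts of clones and within clones. Adjusted p-values (Benjamini-Hochberg) covered all genes tested, with a threshold of 0.05, and SE was derived from F. Fits were also run on simulated data with known changes. Each simulated library was drawn independently, so this did not test p-values where same-numbered libraries deviate together.

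The members and lists were chosen with earlier results of these data known. All 9 members were named, with, per role of other uptake genes, those of the largest and the smallest fold change between days 0 and 6, and for likeness the 3 closest protein-coding genes with a mean log2 CPM of at least 3. Other genes were named after their values were seen. Some genes that these rules choose are not reported here. Alternatives were DESeq2 1.42.0, edgeR's newer form, scaling by RLE or by totals only, dropping the filter or requiring 1 CPM in 6 libraries, leaving out 1 *Rxra*SA library of day 0 (clone 48, replicate 1), each clone alone, no clone term, 12 groups, a replicate block, and leaving out each replicate number of a clone (6 libraries) in turn. Same-numbered *Rxra*WT and *Rxra*SA libraries of a clone and day deviated together (18 pairs, correlations of 0.176 to 0.93 over 9381 genes). The numbers were therefore taken to pair the libraries within a day. This pairing was uneven at day 0, with 0.432, 0.176 and 0.359 in clone 48 and 0.921, 0.236 and 0.71 in clone 66. There *Rxra*SA replicate 2 of clone 66 went more with *Rxra*WT replicate 3 (0.541) than with *Rxra*WT replicate 2 (0.236). No libraries were alike within sampling noise. Promoters came from RefSeq (GRCm38.p6), and counting intervals cover counting error only.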

Additional observations from a re-analysis of the deposited data

Results flagged for a closer look

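In 5 of the 54 sets of 6 libraries (9 genes by genotype and day), 1 library stood apart from the rest by the ratio of its gap to the whole range. Chance alone does this in about 1 in 20 sets of independent values from 1 normal distribution. Each set here joins libraries of 2 clones, which differed for several genes, so that rate need not hold. For *Fabp3* it was replicate 3 of clone 48, *Rxra*WT, day 0 (0.763 CPM, others 0.102 to 0.247; ratio of 0.781). The same library stood apart for *Fabp4* (71.0 CPM, others 32.6 to 46.6; 0.635). For *Acsl1* it was replicate 2 of clone 66, *Rxra*SA, day 2 (5550 CPM, others 4530 to 4860; 0.679). *Slc27a1* was high in replicate 1 of clone 66, *Rxra*WT, day 0 (107 CPM, others 59.5 to 74.6; 0.682), and *Slc27a4* in replicate 3 of clone 48, *Rxra*WT, day 6 (101 CPM, others 51.1 to 67.0; 0.682). The summed adipocyte markers of these libraries lay within the range of the others of their set (6.46 CPM in 0.69 to 9.33, 948 in 744 to 1890, 1.32 in 0.69 to 9.33, and 3560 in 2730 to 4500).

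The change over time differed between the clones for 4 genes in edgeR's test of that difference, given as clone 66 minus clone 48 on the log2 scale. Between days 0 and 2 it was 1.31 for *Lpl*, -0.87 for *Fabp5* and -0.94 for *Slc27a1*. Between days 2 and 6 it was -0.56 for *Acsl1*. Each clone was sequenced in its own pool, so clone and pool cannot be told apart.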

How the results depend on the processing

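Over all alternatives, counts of called genes stayed within 1.5 times the reported one in 327 of the cases and moved in 18, and the 142 values for the ratios between genes kept their call, of which 3 that were not called changed sign (0.18, -0.27 and -0.21 without a replicate number). Values of single genes kept both in 644 cases, lost the call in 34 and gained it in 21. *Lmf1* between days 0 and 2 changed sign when libraries were scaled by totals alone (-0.04). The counts that moved were those of clone contrasts. For the change between days 0 and 6 by clone (0 called), 1 gene was called with the replicate block (7.75% of all genes) and 1 without a filter (1.4%). For that between days 2 and 6 (1 called), there were 4 with the replicate block (11.8% of all genes), 0 without a filter (2.06%), 2 with DESeq2 (6.95%) and 2 with edgeR's newer form (6.04%). Leaving out a replicate number of a clone gave 1 to 3 called genes for clone 66 against clone 48 at day 2, 2 to 4 at day 6, and 1 to 3, 0 to 1 and 0 to 1 for the change by clone between days 0 and 2, 0 and 6, and 2 and 6. The cause was not tested. The replicate block held each replicate number of a clone together over all 3 days. Same-numbered libraries of different days, of 1 clone and genotype, had correlations between -0.325 and 0.882 (36 pairs). Calls between days gained with this block rest on a pairing of the days, which was not tested. The replicate block changed no other count past 1.5 times. With it, or with a block within each day added after the data were seen, 0 genes of the list were called between genotypes. No block could be fitted for clone 66 against clone 48, since each block lies in 1 clone. Without an added count, the *Fabp4* to *Fabp3* ratio has no value where *Fabp3* is at 0. *Fabp3*, with at most 15 counts per library, is limited by depth. Averaging paired libraries left the ratios 3 values a day, too few for a call.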
